A study of Homo sapiens with 24 samples.

Results

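Noncoding genes named by their symbol were followed through 3 RNA-seq experiments in BT549 cells, a human line from a breast tumour of the triple negative type, which lacks both hormone receptors and HER2 amplification. A gene was taken when its symbol was SNHG or LINC followed by digits only, ended in -AS (with or without digits) or -DT, or was GAS5, MALAT1 or NEAT1. The rule found 1016 members among the 18154 genes named in the 3 tables: 829 in the knockdown table, 953 in the inhibitor table and 90 in the MB-3 table, with 72 in all 3. These are counts of symbols, and 17 members were in the MB-3 table alone. That table lists TMEM161B-DT and TMCC1-DT, where the other tables list TMEM161B-AS1 and TMCC1-AS1. A gene listed under different symbols is counted more than once, and its class follows the symbol. Members with a mean normalised count of at least 10 were tested, which left 701, 439 and 90. In RefSeq, 941 members were matched by symbol, and 937 of these are annotated as lncRNA and 1, LINC02798, as protein coding.

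Small nucleolar RNAs (snoRNAs) guide chemical modification of ribosomal RNA and are mostly cut from introns of host genes. The SNHG (small nucleolar RNA host gene) family and GAS5 are hosts whose spliced transcript codes for no known protein, and many host genes, like ribosomal protein genes, are targets of MYC, the transcription factor that drives ribosome production. NEAT1 is the scaffold of nuclear bodies called paraspeckles, and MALAT1 is an abundant RNA of nuclear speckles. LINC genes are long intergenic noncoding RNAs, -AS genes are transcribed opposite another gene, and -DT genes start next to a gene and run away from it. In the reference annotation, entries listed as snoRNA or as scaRNA, a related class, lay inside 21 of the 23 matched SNHG genes and GAS5. These were 48 entries in all, some of them under the same name. SNHG1 held 7, SNHG12 and SNHG17 5 each, SNHG7 4, and SNHG16, SNHG25 and SNHG29 3 each. None is listed there inside GAS5 or SNHG27. Of the LINC members, 1 held such an entry.

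All libraries came from wild type BT549 cells, as total RNA depleted of ribosomal RNA, with 3 libraries labelled as biological replicates in each of 8 groups. In the knockdown experiment, cells given a control siRNA (siCtl, for which the labels give no time) were compared with cells given a pool of siRNAs against MYC (siMYC) for 72 h. In the inhibitor experiment, the groups were vehicle (VEH), DEX, KJ-PYR-9 at 40 µM for 3 h in DMSO, and both together (KJ-PYR-9+DEX). The labels do not give the dose, time or full name of DEX, or a time for VEH. KJ-PYR-9 is known as an inhibitor of the pairing of MYC with its partner MAX. In the third experiment, MB-3 at 100 µM for 3 h (MB3), known as an inhibitor of the histone acetyltransferase GCN5, was compared with its own vehicle (VEH2). No time is given for VEH2 either. BT549 is 1 cell line, the labels do not say whether replicates were separate cultures, and p-values measure the spread between these libraries.

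Depth recovered from the values was 18.77 to 24.15 M reads (M, 1e6) in the knockdown libraries, 5.582 to 30.76 M in the inhibitor libraries and 8.306 to 19.96 M in the MB-3 libraries. In DEX 1 and KJ-PYR-9+DEX 3, 26.04% and 8.72% of the signal was in features without a symbol, against 1.62 to 5.44% in the other inhibitor libraries. All 5 mesenchymal markers looked for (VIM, FN1, CD44, ZEB1, SPARC) were present in every table, with a summed level of 37614 to 89089. Of ESR1, PGR and ERBB2, the genes of the hormone receptors and HER2, the knockdown and MB-3 tables listed ERBB2 alone (1121 to 2100 and 643 to 863) and the inhibitor table PGR and ERBB2 (sum 569 to 1619). Of 6 epithelial markers, CDH1, KRT8, KRT18, KRT19 and GATA3 were in the knockdown and inhibitor tables, GATA3 alone was in the MB-3 table, and EPCAM was in none. PTPRC, CD14 and CD68 were the leukocyte markers listed, 3 of 6 in the first 2 tables (sum at most 94.6) and 0 in the MB-3 table, and of 4 endothelial markers VWF alone was listed, in the inhibitor table (at most 5.22). Several of these sums moved with the groups. In siMYC against siCtl, without overlap, the mesenchymal sum went from 60489 to 65953 up to 78837 to 89089, the epithelial sum from 909 to 1089 up to 1228 to 1513, ERBB2 from 1121 to 1405 up to 1717 to 2100, and the leukocyte sum from 39.5 to 62.1 up to 75.1 to 94.6. In the inhibitor experiment the mesenchymal sum was 37614 to 42003 in VEH, 47061 to 52928 in DEX and 50966 to 56574 in KJ-PYR-9, and the epithelial sum was 396 to 566, 284 to 413 and 601 to 627. In KJ-PYR-9+DEX the mesenchymal sum was 44175 to 51146 and the epithelial sum 475 to 599. PGR and ERBB2 summed to 787 to 914 in VEH, 569 to 679 in DEX, 1076 to 1305 in KJ-PYR-9 and 1096 to 1619 in KJ-PYR-9+DEX. The leukocyte markers summed to 21.8 to 39.1 in VEH, 23.7 to 38.6 in DEX, 39.8 to 69.7 in KJ-PYR-9 and 28.1 to 51.1 in KJ-PYR-9+DEX. The part of these sums in the results was not tested. MYC itself, the knockdown target, was at 2313, 2269 and 2138 normalised counts in siCtl and 1655, 1789 and 1710 in siMYC. The groups did not overlap, but the log2 difference of -0.38 (SE 0.11) missed the threshold (limma, adjusted p = 0.0587). In the inhibitor experiment MYC averaged 1806 ± 598 (SD, n = 3) in VEH, 18424 ± 1364 in DEX, 9853 ± 1408 in KJ-PYR-9 and 4160 ± 440 in the group given both. The labels of these 4 groups were taken as given, and no value here checks them. Its log2 difference for MB3 was -0.05 (limma, adjusted p = 0.852).

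Transcripts of the translation machinery often begin with a 5′ TOP run, a C at the first base followed by at least 4 pyrimidines. Of the 20 SNHG genes and GAS5 with a sequence in the RefSeq table (GRCh38.p14), 4 had an annotated start in such a run. So did 5.14% of all 27305 genes with a sequence there. The 60 bases around the annotated start of these 4 follow, with the run in capitals.
SNHG12 (chr1:28581834-28581893, minus strand): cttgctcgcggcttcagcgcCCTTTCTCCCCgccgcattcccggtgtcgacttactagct
SNHG19 (chr16:2155319-2155378, minus strand): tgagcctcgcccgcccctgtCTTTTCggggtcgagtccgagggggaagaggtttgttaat
SNHG32 (chr6:31834896-31834955, plus strand): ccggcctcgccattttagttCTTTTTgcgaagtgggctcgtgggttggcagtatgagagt
SNHG5 (chr6:85678694-85678753, minus strand): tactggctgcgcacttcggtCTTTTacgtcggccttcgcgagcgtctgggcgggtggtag

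The same windows of 4 hosts that fell on MYC knockdown without meeting that definition are shown for comparison, with the first base of the transcript in capitals. SNHG1 opens with a C, but a purine interrupts the pyrimidines before the run is long enough, and GAS5, SNHG16 and SNHG29 open with a purine. The starts are annotated ones, and the files do not say where transcription began in these cells.
GAS5 (chr1:173869006-173869065, minus strand): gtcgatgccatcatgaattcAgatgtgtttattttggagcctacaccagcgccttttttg
SNHG1 (chr11:62855846-62855905, minus strand): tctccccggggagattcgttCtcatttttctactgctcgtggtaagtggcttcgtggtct
SNHG16 (chr17:76557744-76557803, plus strand): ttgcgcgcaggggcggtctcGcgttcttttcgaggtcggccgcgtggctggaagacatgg
SNHG29 (chr17:16438967-16439026, plus strand): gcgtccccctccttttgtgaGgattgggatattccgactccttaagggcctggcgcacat

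The first comparison asked what the noncoding hosts and other named noncoding genes did when MYC was targeted by siRNA. The snoRNA hosts were lower in siMYC: 12 of the 21 tested passed the test as lower and 0 as higher, where 4.78% of all 14788 genes tested fell and 11.4% rose, 16.1% together (limma, Benjamini-Hochberg adjusted p under 0.05). The median log2 difference of the hosts was -0.69, against 0.05 over all genes tested. In 17 of the 21 the groups did not overlap, all with siMYC lower, which was so for 17.1% of all genes. Among all 701 members tested, 50 rose and 48 fell (110 and 123 with groups apart, where 26.6% of all genes were apart and higher). That split moved with the scaling, to 37 and 56 after TMM rescaling and 32 and 77 after quantile scaling.

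GAS5, a host of box C/D snoRNAs named for its rise in growth-arrested cells, was at 3011, 3213 and 3100 normalised counts in siCtl and 1747, 1773 and 1555 in siMYC. Every siMYC library was well below every siCtl library, and the log2 level of GAS5 fell by 0.88 (SE 0.12, limma adjusted p = 0.0102). SNHG29, the host with the highest count in this table (counts are not scaled to gene length), was at 5518, 5602 and 5979 in siCtl and 3553, 3977 and 3060 in siMYC, a fall of 0.70 (SE 0.14, limma adjusted p = 0.0239). SNHG1 was at 1746, 1684 and 1851 in siCtl and 995.5, 1108 and 902 in siMYC. Its groups stood apart too, and it fell by 0.82 (SE 0.13, limma adjusted p = 0.0145).

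SNHG16 fell furthest among the hosts that passed, from 1182, 1224 and 1422 to 559.6, 702.3 and 446.8, a log2 difference of -1.18. SNHG19 (log2 -1.17), SNHG25 (-0.88), SNHG15 (-0.88), SNHG17 (-0.76), SNHG3 (-0.69), SNHG5 (-0.64), SNHG7 (-0.59) and SNHG8 (-0.42) also fell. The 4 hosts with a 5′ TOP run at the start did not move alike: SNHG19 and SNHG5 passed the test, while SNHG12 had a log2 difference of -0.39 (limma adjusted p = 0.0907) and SNHG32 one of -0.31. SNHG6 was at -0.35 (limma adjusted p = 0.0879), and SNHG11 was the 1 host with a positive difference, 0.12.

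The number of hosts that passed changed when 1 library was left out. Each such fit also has 1 library fewer, and the part of that was not tested. Without siCtl 1, siCtl 2, siCtl 3 or siMYC 3 the count was 4, 3, 3 and 5, and without siMYC 1 or siMYC 2 it was 11 and 14, all lower; GAS5, SNHG15 and SNHG25 passed in each of these 6 fits.

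**Figure D1:**
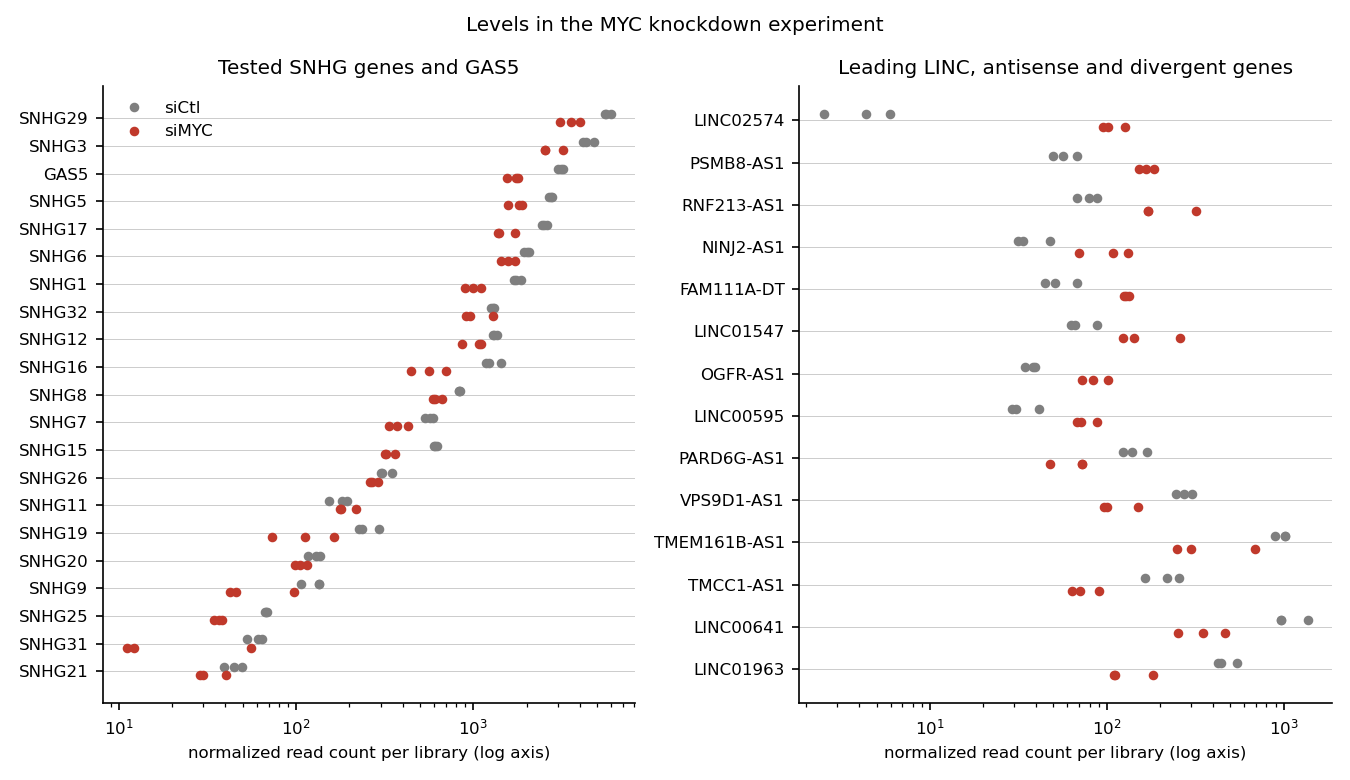
Normalised count per library (log axis, 1 point per library) of the 21 tested snoRNA hosts, left, and of the leading LINC, antisense and divergent genes, right, with siCtl in grey and siMYC in red. GAS5, SNHG1 and SNHG29 have every siMYC point below every siCtl point, and LINC02574 goes from 2.51 to 5.93 in siCtl to 95.2 to 126 in siMYC.

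Host genes that code for protein were lower as well. Of the 54 on the list, which includes ribosomal protein genes and nucleolar factors, 26 fell and 0 rose, with a median of -0.50. Over all genes tested 4.78% fell and 11.4% rose. Examples were RPL3 (log2 -0.83) and RPL5 (-0.82), both proteins of the large ribosomal subunit, GNL3 (-0.60), the nucleolar protein nucleostemin, and DKC1 (-0.48), the pseudouridine synthase that works with box H/ACA snoRNAs. Some calls lay at the threshold, such as DKC1 and RPL30 (limma adjusted p = 0.04995 for each). The count for the list was not taken with 1 library left out. Of all genes tested in both this and the inhibitor experiment, 637 fell. That number was 60, 64, 42 and 65 without siCtl 1, siCtl 2, siCtl 3 and siMYC 3, and 1642 and 516 without siMYC 1 and siMYC 2. Among 28 other named long noncoding RNAs that are not members, 6 rose and 5 fell. DANCR, itself a snoRNA host, fell by 2.26, MIR17HG, the precursor of the miR-17 cluster and a known MYC target, fell too, and BISPR, next to the interferon-induced gene BST2, rose by 2.67.

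Both nuclear RNAs missed the threshold. MALAT1 was at 548723, 572564 and 465685 in siCtl and 553927, 193574 and 448305 in siMYC, with siMYC 2 alone low (log2 -0.54, limma adjusted p = 0.343, and -0.08 without siMYC 2). NEAT1 was at 13567, 17026 and 14293 in siCtl and 11174, 10399 and 13644 in siMYC, with a small overlap (log2 -0.35, limma adjusted p = 0.157). MALAT1 held 79.2 to 83.6% of the members' reads in the other 5 libraries and 65.7% in siMYC 2.

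Of the LINC members 21 of 182 rose (11.5%) and 7 fell (3.85%), near the 11.4% and 4.78% of all genes tested. Of the antisense members 23 of 451 rose (5.10%) and 27 fell (5.99%). Of the divergent members 6 of 45 rose (13.3%) and 2 fell (4.44%). These counts also changed when 1 library was left out. The 28 LINC calls were 13, 9, 11 and 8 without siCtl 1, siCtl 2, siCtl 3 and siMYC 3, and 45 without siMYC 1. The 50 antisense calls were 10, 10, 7 and 8 without the same 4 libraries, and 117 without siMYC 1. The 8 divergent calls were 1 without any 1 of the siCtl libraries, 4 without siMYC 2 and 2 without siMYC 3.

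LINC02574 was barely detected in siCtl, with 5.93, 4.36 and 2.51 normalised counts from 6, 4 and 3 reads, and was at 102, 95.2 and 126 in siMYC. It showed the largest rise of the members named here, 4.41 on the log2(value + 1) scale (SE 0.26, limma adjusted p = 0.00551).

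PSMB8-AS1, opposite the gene of an immunoproteasome subunit, was at 49.4, 67.6 and 56.9 in siCtl and 152, 167 and 184 in siMYC. It rose by 1.52 (SE 0.16, limma adjusted p = 0.00665), and PSMB8 rose by 1.49. The pair shares 55.0% of the exon bases of PSMB8-AS1 on opposite strands, and whether strand was used in counting is not given in the sources used here, so their reads cannot be told apart. FAM111A-DT rose by 1.25 beside FAM111A (1.04), an antiviral protease gene. Genes on the opposite strand share 4.7% of the exon bases of FAM111A-DT. OGFR-AS1 (1.17, with OGFR at 1.09) and RNF213-AS1 (1.42, with RNF213 at 1.94) also rose, as did NINJ2-AS1 (1.41), LINC01547 (1.20) and LINC00595 (1.15).

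The largest falls outside the hosts were LINC01963, at 426, 440 and 548 in siCtl and 183, 112 and 109 in siMYC (log2 -1.83), LINC00641 (-1.64), TMCC1-AS1 (-1.49), TMEM161B-AS1 (-1.39), VPS9D1-AS1 (-1.26) and PARD6G-AS1 (-1.16). TMCC1-AS1 shares no exon base with TMCC1, which was at -0.11 (limma adjusted p = 0.567). VPS9D1-AS1 went the opposite way to VPS9D1, which rose by 0.76. Leaving out at least 1 library ended the call of RNF213-AS1, NINJ2-AS1, LINC01547, LINC00595, LINC00641, TMEM161B-AS1, VPS9D1-AS1 and PARD6G-AS1, siCtl 3 among them each time, and the calls of LINC02574, PSMB8-AS1, FAM111A-DT, OGFR-AS1, LINC01963 and TMCC1-AS1 held in all 6 fits.

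Letters of the interferon-stimulated response element core, searched on both strands in windows of 300 bases around the start, were in 5 of the 37 members that rose and had a sequence: FAM111A-DT, LBX2-AS1, LINC01085, LINC01305 and PSMB8-AS1. They were in 0 of the 35 that fell, in 9 of the 426 that were not called and had a window, and in 4.38% of all genes with a window. The match of PSMB8-AS1 is shown because it had the largest rise of the antisense genes named here. It begins 44 bases before the start and is in capitals. E-boxes (CACGTG), the letters MYC and MAX are known to bind, were in 1 of the 20 hosts with a window, SNHG7. They were in 9.50% of all members and 8.77% of all genes with a window. The site of SNHG7 begins 122 bases before its start. Other letters were searched in the same way. Those of the cyclic AMP response element (TGACGTCA) were in 4 of the 37 members that rose, 0 of the 35 that fell and 2.25% of all genes with a window. AP-1 letters (TGACTCA) were in 2 of the 37 and 0 of the 35, and E-boxes in 4 and 3. A match is a description of these letters alone.
PSMB8-AS1 (chr6:32844002-32844091, plus strand): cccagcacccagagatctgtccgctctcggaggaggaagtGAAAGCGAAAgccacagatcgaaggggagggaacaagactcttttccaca
SNHG7 (chr9:136728261-136728346, minus strand): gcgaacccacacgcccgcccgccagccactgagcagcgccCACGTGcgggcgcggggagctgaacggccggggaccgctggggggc

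KJ-PYR-9 for 3 h was then compared with VEH. The snoRNA hosts rose more often than they fell, with 8 of 21 higher and 2 lower, where 25.4% of all 13616 genes tested rose and 17.5% fell (42.9% together). Their median log2 difference was 0.58, against 0.06 over all genes. Antisense members went the other way, with 74 of 277 lower and 17 higher and a median of -0.30. Over all 439 members tested, 43 rose and 105 fell. The groups did not overlap for 79 members higher and 141 lower, against 35.4% and 29.2% of all genes.

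GAS5 was at 1286, 1430 and 1694 in VEH and 2648, 2628 and 2996 in KJ-PYR-9. All 3 treated libraries were above all 3 controls, and GAS5 rose by 0.91 (SE 0.14, limma adjusted p = 0.00177). SNHG7 was at 219.9, 309.5 and 292.3 in VEH and 610.3, 630 and 688.1 in KJ-PYR-9, a rise of 1.24 (SE 0.17, limma adjusted p = 0.000846). SNHG8 (0.98), SNHG12 (0.94), SNHG19 (0.91), SNHG15 (0.87), SNHG32 (0.69) and SNHG17 (0.58) also rose, and SNHG26 (-0.65) and SNHG20 (-0.49) fell.

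Among the hosts that did not pass, SNHG29 was at 2995, 3253 and 3045 in VEH and 3364, 3741 and 3302 in KJ-PYR-9 (log2 0.16, limma adjusted p = 0.32), a sign that turned to -0.25 under quantile scaling. SNHG3 had a log2 difference of -0.33 (limma adjusted p = 0.0653, and 0.0138 with the replicate number as a block). SNHG5 was at -0.24, SNHG6 at -0.47 and SNHG1 at 0.33. Without VEH 1 the host count was 6, with 5 higher and 1 lower, and without DEX 1 and KJ-PYR-9+DEX 3 together it was 16, with 12 higher and 4 lower.

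NEAT1 was at 4275, 2909 and 3943 in VEH and 24765, 13773 and 15081 in KJ-PYR-9, and rose by 2.24 (SE 0.23, limma adjusted p = 0.00019). MALAT1 was at 235774, 147486 and 144896 in VEH and 137447, 113511 and 120243 in KJ-PYR-9. Its groups did not overlap, and its log2 difference of -0.48 missed the threshold (limma adjusted p = 0.127) but passed with the replicate number as a block (0.0223).

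**Figure D2:**
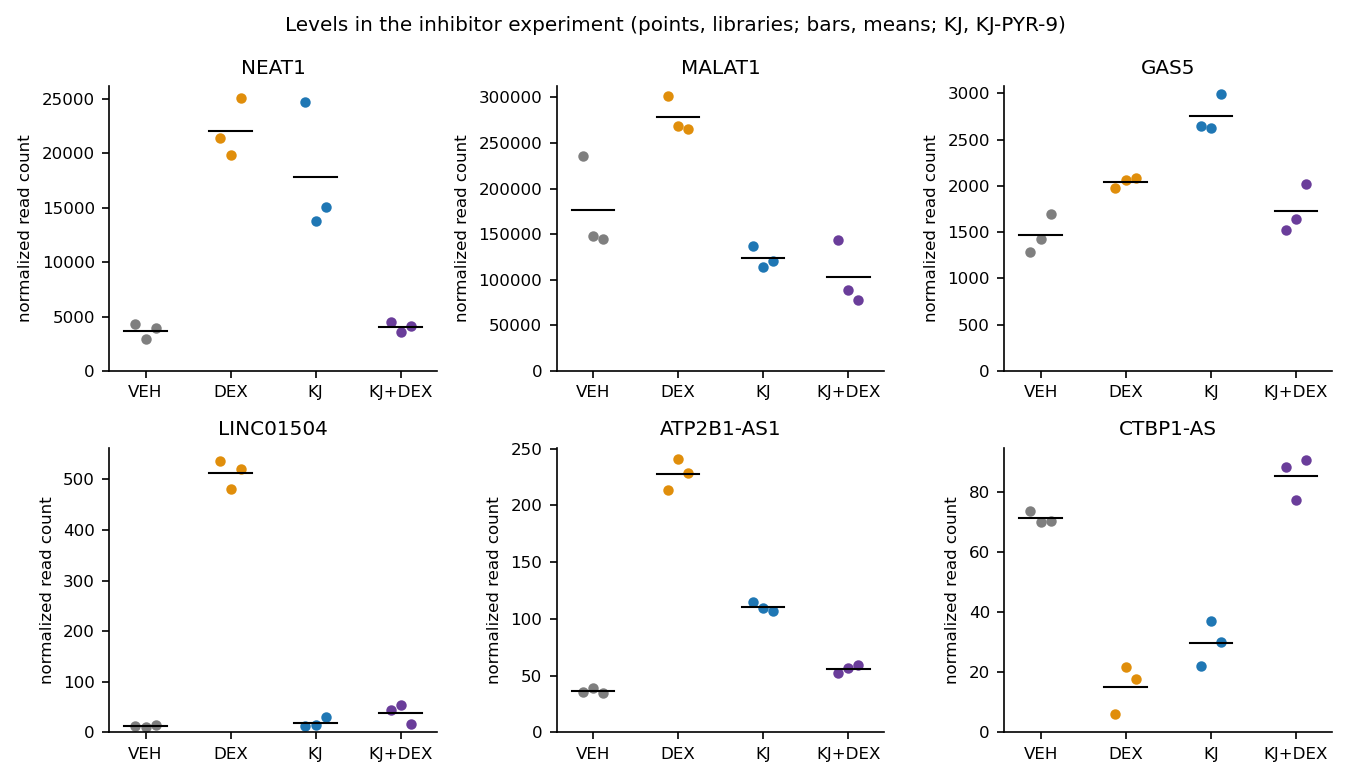
Normalised count (linear axis from 0) of 6 members in the VEH, DEX, KJ-PYR-9 (KJ) and KJ-PYR-9+DEX (KJ+DEX) libraries, with 1 point per library and the group mean as a bar. NEAT1 is at 13773 to 25093 with either agent alone and at 2909 to 4459 in VEH and with both, and LINC01504 is high in DEX alone.

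ATP2B1-AS1, opposite the gene of a plasma membrane calcium pump, was at 35.2, 38.9 and 34.4 in VEH and 115, 110 and 107 in KJ-PYR-9 (log2 1.59), while ATP2B1 fell by 0.48. MATN1-AS1 rose by 1.56 together with MATN1 (1.58), a cartilage matrix protein gene. LINC00355 (0.95) rose as well, and so did ADIRF-AS1 (from 42.4, 57.6 and 68.8 to 131, 106 and 100.5), though not without VEH 1 or KJ-PYR-9 1.

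The share that fell was 26.7% of the antisense class and 23.9% of all members tested, against 17.5% of all genes. OIP5-AS1, an RNA known for binding the microRNA miR-7, was at 652.8, 607.9 and 593.9 in VEH and 242.1, 225.3 and 196.1 in KJ-PYR-9, and fell by 1.48 (SE 0.22, limma adjusted p = 0.00146). TMEM161B-AS1 (-1.86) and OTUD6B-AS1 (-1.80) fell with their partners TMEM161B (-1.29) and OTUD6B (-1.19). STARD13-AS (-1.97), BDNF-AS (-1.33) and RUSC1-AS1 (-1.29) fell while STARD13 (0.74), BDNF (0.41), the neurotrophin gene, and RUSC1 (0.38) rose. HMGA2-AS1 (-1.38) fell, and HMGA2, which codes for a chromatin architectural protein, was at 0.09.

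LINC00472 had the largest fall of the members named here, from 894.6, 418.2 and 506.4 to 106, 139.7 and 136.2 (log2 -2.18). VEH 1 was the highest of its group, and the call held without it. The LINC class as a whole had 13 of 103 members higher (12.6%) and 21 lower (20.4%), and the divergent class 4 of 36 higher (11.1%) and 8 lower (22.2%). Over all genes 25.4% were higher and 17.5% lower. Of the protein-coding hosts 24 of 54 rose and 3 fell, and of the other named long noncoding RNAs 3 of 28 rose and 12 fell, among them NORAD (-0.93), TUG1 (-0.75) and MIR17HG (-0.80). Without VEH 1 the count of antisense calls was 60 in place of 91. The 12 divergent calls were 4 to 7 without any 1 of the VEH or KJ-PYR-9 libraries.

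An E-box lay 240 bases before the start of OIP5-AS1, shown here with its letters in capitals because OIP5-AS1 had the highest count of the antisense genes named here as falling. Of the 73 members that fell and had a window, 7 held an E-box, and of the 37 that rose, 3 did. An E-box was in 22 of the 208 members that were not called and had a window, and in 8.77% of all genes with a window.
OIP5-AS1 (chr15:41283740-41283795, plus strand): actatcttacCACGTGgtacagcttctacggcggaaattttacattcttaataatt

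The knockdown and the inhibitor experiment share no library, so calls can be set side by side. Of 414 members tested in both, 6 were lower in siMYC and higher in KJ-PYR-9, and each was a snoRNA host: GAS5, SNHG7, SNHG8, SNHG15, SNHG17 and SNHG19. They make up 6 of the 12 hosts lower in siMYC and 6 of the 8 higher in KJ-PYR-9, and 0 hosts were lower in both. Hosts were already frequent among the calls of each comparison, so the 6 are a description. Over all 13137 genes tested in both, 637 were lower in siMYC, 3341 were higher in KJ-PYR-9 and 106 were both. The 6 became 2, GAS5 and SNHG15, without siCtl 1, siCtl 2, siCtl 3 or siMYC 3, 4 without siMYC 1 and 7 without siMYC 2. Members lower in siMYC, 38 of those tested in both, were 10, 6, 5 and 8 without siCtl 1, siCtl 2, siCtl 3 and siMYC 3. Members lower in both numbered 10 and included LINC00641, LINC01963, TMEM161B-AS1 and OTUD6B-AS1. Those higher in both were CCDC183-AS1, LINC01270 and LIPE-AS1, and those higher in siMYC and lower in KJ-PYR-9 were MICB-DT, SCAMP1-AS1 and TRAM2-AS1. Taken singly, 38 of the 414 were lower in siMYC and 99 in KJ-PYR-9, and 32 and 36 were higher. Counts of all genes lower in both, higher in both or higher and then lower were not taken. The 10 and the other joint counts of members are therefore a description. The experiments differ in agent and time, 72 h of siRNA against 3 h of inhibitor.

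**Figure D3:**
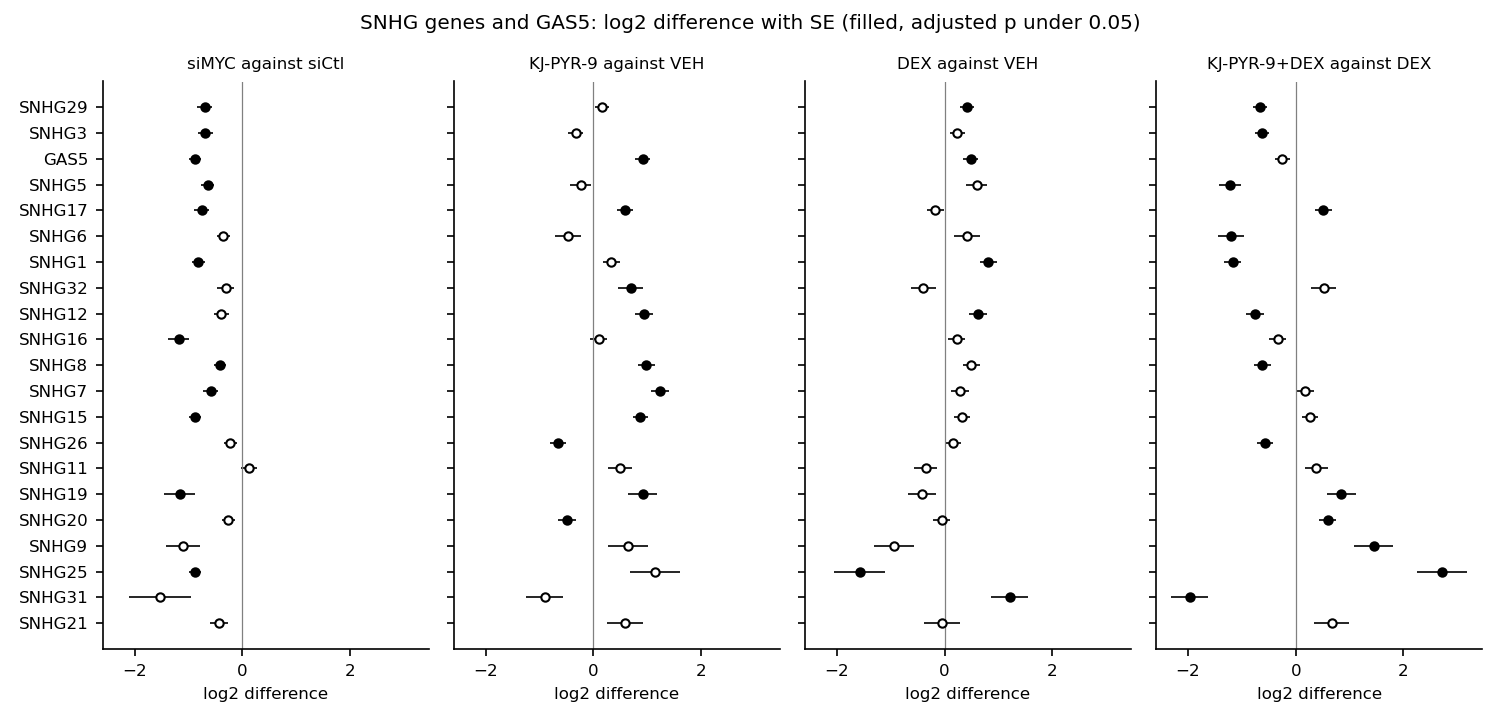
Log2 difference of each snoRNA host in 4 comparisons (horizontal axes, same range), with the standard error as a bar, and filled points where the adjusted p was under 0.05. GAS5 is at -0.88 in siMYC against siCtl and at 0.91 in KJ-PYR-9 against VEH.

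DEX was compared with the same VEH libraries as KJ-PYR-9. Of the members tested, 51 of 439 rose and 62 fell, where 9.5% of all genes rose and 8.02% fell (17.5% together). The groups did not overlap for 84 members higher and 105 lower, against 23.6% and 20.1% of all genes. LINC01504 was near the floor in VEH, at 12.1, 11.5 and 14.1 normalised counts, and at 537, 480 and 520 in DEX. That is a rise of 5.25 (SE 0.40, limma adjusted p = 2.03e-05), and the groups were far apart. ATP2B1-AS1 was at 214, 241 and 229 in DEX and rose by 2.62, with ATP2B1 at 0.91, also a call.

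NEAT1 was at 21385, 19845 and 25093 in DEX and rose by 2.59 (SE 0.23, limma adjusted p = 4.93e-05). MALAT1 was at 301393, 268666 and 265363 in DEX, above every VEH library, with a log2 difference of 0.70 that missed the threshold (limma adjusted p = 0.0658) and passed with the replicate number as a block (0.00799). LINC01572 (1.51), HMGA2-AS1 (1.32, with HMGA2 at 1.15), LINC00968 (1.28) and NR2F1-AS1 (1.16) also rose. The rise of LINC00968 was not a call without VEH 2 or DEX 1.

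Among the snoRNA hosts 5 of 21 rose and 1 fell, and with the replicate number as a block 11 passed, 9 higher and 2 lower. SNHG1 was at 608.5, 638.4 and 572 in VEH and 1052, 1059 and 1080 in DEX, and rose by 0.81 (SE 0.16, limma adjusted p = 0.00867). Its call was the only 1 of the 6 that held whichever of the 12 libraries was left out. SNHG31 (1.21), SNHG12 (0.61), GAS5 (0.48, from the VEH values above to 1977, 2062 and 2086) and SNHG29 (0.42) rose and SNHG25 (-1.58) fell, and each lost its call in 6 to 9 of those fits. The host count was 1 without VEH 2, DEX 2 or KJ-PYR-9 2, 2 without VEH 1, VEH 3, DEX 1 or KJ-PYR-9 1, and 3 without DEX 3 or KJ-PYR-9 3. SNHG5 was at 0.60 (limma adjusted p = 0.0566, and 0.0189 with the block).

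CTBP1-AS, opposite a corepressor gene, was at 73.4, 69.8 and 70.3 in VEH and 6.10, 21.9 and 17.8 in DEX. It fell by 2.32 (SE 0.35, limma adjusted p = 0.00213), with 2, 24 and 17 reads in the DEX libraries. HOXC-AS2 (-1.61), RUSC1-AS1 (-1.51), LINC00472 (-1.34), LINC01465 (-1.33), A1BG-AS1 (-1.27, with A1BG at -1.10) and RBM12B-AS1 (-1.27) fell as well. The calls of A1BG-AS1 and LINC00472 were each lost without VEH 1, VEH 3, DEX 1 or DEX 2, and that of LINC00472 also without VEH 2 or any 1 of the KJ-PYR-9 libraries. DEX 1, the library with the most signal in features without a symbol, was the lowest DEX library for SNHG25 and for each of these 7. Without it CTBP1-AS, HOXC-AS2, LINC01465, RBM12B-AS1 and RUSC1-AS1 still passed, and A1BG-AS1, LINC00472 and SNHG25 did not. Of the LINC class 19 of 103 rose (18.4%) and 17 fell (16.5%), where 9.5% of all genes rose and 8.02% fell. Of the antisense class 23 of 277 rose (8.30%) and 39 fell (14.1%). Of the divergent class 3 of 36 rose (8.33%) and 5 fell (13.9%). The 36 LINC calls were 21 without VEH 3, the 62 antisense calls 40, 36, 39 and 39 without VEH 2, VEH 3, DEX 1 and DEX 2, and the 8 divergent calls 4, 5 and 4 without VEH 2, VEH 3 and DEX 1. Of the protein-coding hosts 6 of 54 rose and 1 fell.

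The promoter of LINC01504 is shown because of the size of its rise. It held an AP-1 site (TGACTCA) beginning 65 bases and an E-box beginning 56 bases before the start, both in capitals. AP-1 letters were in 3 of the 37 members that rose in DEX and had a window and in 1 of the 43 that fell. An E-box was in 1 of the 37, LINC01504 itself, and in 2 of the 43. Of all genes with a window 6.05% held AP-1 letters, and of all members with a window 7.16%.
LINC01504 (chr9:72305331-72305425, plus strand): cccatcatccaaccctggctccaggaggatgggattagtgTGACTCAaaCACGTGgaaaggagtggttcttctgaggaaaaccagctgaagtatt

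KJ-PYR-9 given with DEX was compared with DEX alone. In this comparison 33.6% of all genes rose and 35.1% fell (68.7% together), and of the members 112 of 439 rose and 108 fell. The groups did not overlap for 102 members higher and 109 lower, against 33.8% and 35.2% of all genes. NEAT1 was at 4459, 3555 and 4109 in KJ-PYR-9+DEX, below every DEX library and in the range of the VEH libraries except for KJ-PYR-9+DEX 1, and fell by 2.45 (SE 0.23, limma adjusted p = 4.46e-05). MALAT1 was at 143632, 89024 and 77748 and fell by 1.48 (SE 0.24, limma adjusted p = 0.000451). LINC01504, at 44.1, 54.1 and 15.7, fell by 3.89, and ATP2B1-AS1, at 52.2, 56.5 and 59.0, by 2.01, beside ATP2B1 (-1.12).

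THAP9-AS1 (-2.14), LINC01572 (-1.71), LINC00968 (-1.43) and BDNF-AS (-1.42) fell, and THAP9 (-1.51) and BDNF (-1.69) fell with them. CTBP1-AS, at 88.3, 77.2 and 90.4, rose by 2.57, and CTBP1 rose by 0.97. A1BG-AS1 (1.91), MRPL20-AS1 (1.81), DIP2C-AS1 (1.71), HOXC-AS2 (1.66) and PSMG3-AS1 (1.47) rose too. DEX 1 held 12 reads of A1BG-AS1 and 5 of DIP2C-AS1. Leaving out 1 library gave 1.54 to 2.27 and 1.37 to 2.07 for these 2. MRPL20, the gene of a mitochondrial ribosomal protein, was at 0.22 (limma adjusted p = 0.276).

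The hosts were split, with 5 of 21 higher and 9 lower. SNHG1 was at 583.7, 500 and 359.6 in KJ-PYR-9+DEX, below every DEX library, and fell by 1.17 (SE 0.16, limma adjusted p = 0.000221). SNHG5 (-1.22), SNHG6 (-1.21), SNHG12 (-0.75), SNHG29 (-0.67), SNHG3 (-0.62), SNHG8 (-0.62), SNHG26 (-0.56) and SNHG31 (-1.97) fell. SNHG25 (2.71), SNHG9 (1.45), SNHG19 (0.85), SNHG20 (0.60) and SNHG17 (0.51) rose, SNHG17 not without DEX 1 and KJ-PYR-9+DEX 3 together (limma adjusted p = 0.119) and SNHG19 not without DEX 1. The DEX libraries held 2, 24 and 33 reads of SNHG25 and 11, 123 and 91 of SNHG9. Leaving out 1 library gave SNHG25 2.05 to 3.21 and SNHG9 0.92 to 1.77. GAS5 was at 1524, 1640 and 2024 (log2 -0.25, limma adjusted p = 0.145, and 0.0376 with the block). In the LINC class 24 of 103 rose (23.3%) and 34 fell (33.0%), where 33.6% of all genes rose and 35.1% fell. In the antisense class 74 of 277 rose (26.7%) and 57 fell (20.6%), and in the divergent class 9 of 36 rose (25.0%) and 6 fell (16.7%). Of the protein-coding hosts 14 of 54 rose and 15 fell.

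Whether the effect of KJ-PYR-9 differed with DEX was tested as an interaction, the log2 difference with DEX minus that without. It passed for 123 of 439 members, 74 higher and 49 lower, against 7.15% higher and 9.62% lower over all genes (16.8% together), whose median interaction was -0.11 against 0.18 for the members. Of the hosts 7 of 21 were lower and SNHG20 was higher (1.09). The lower ones were SNHG12 (-1.69), SNHG8 (-1.60), SNHG1 (-1.51), GAS5 (-1.16), SNHG7 (-1.07), SNHG5 (-0.98) and SNHG29 (-0.83), each with a lower difference for KJ-PYR-9 with DEX than without. The call of SNHG5 was lost in 7 of 12 fits that left out 1 library. NEAT1 had an interaction of -4.69 and ATP2B1-AS1 one of -3.59, both high with either agent alone and lower with both, a pattern that rests on the group labels as given. The antisense class ran the other way, with 51 of 277 higher and 20 lower, and MALAT1 missed the threshold (limma adjusted p = 0.0675, and 0.00809 with the block).

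**Figure D4:**
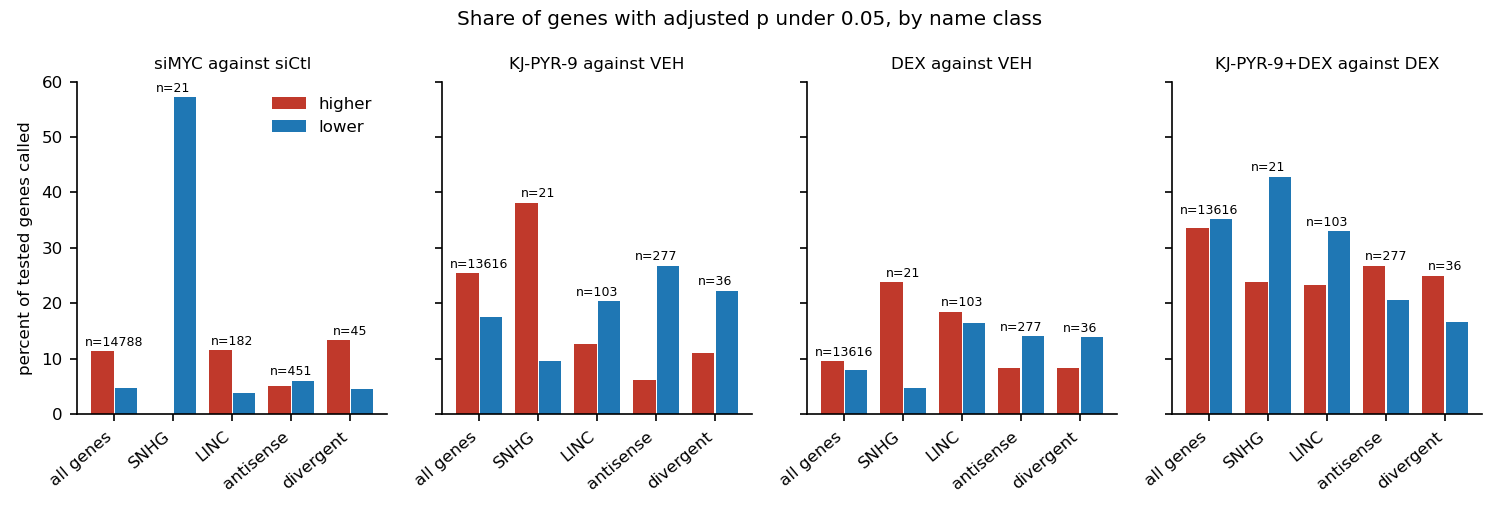
Percent of the tested members of each class that passed the test as higher (red) or lower (blue) in 4 comparisons, beside the percent of all genes tested. The axis starts at 0 and the number tested stands above each pair of bars; in siMYC against siCtl the snoRNA hosts (SNHG) are at 57.1% lower, where all genes are at 4.78%.

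Antisense and divergent genes were also set beside the gene that gives them their name. In siMYC against siCtl the log2 differences of 423 antisense members and their partners had a Pearson r of 0.49 and a Spearman rho of 0.44. In 122 pairs the member shared no exon base with any gene on the opposite strand, and their r was 0.43. Both genes passed in 15 pairs, 13 of them in the same direction. The 45 divergent pairs had an r of 0.64, and all 3 pairs in which both passed went the same way. In KJ-PYR-9 against VEH the r was 0.22 for 248 antisense pairs, and of 34 pairs in which both passed 12 went in opposite directions. In DEX against VEH it was 0.49 for antisense and 0.71 for 36 divergent pairs, and for KJ-PYR-9+DEX set against DEX 0.48 and 0.63. Over the 60 antisense pairs whose member shared no exon base with an opposite-strand gene, the r was lower in both. It was 0.27 for DEX and 0.26 for KJ-PYR-9+DEX, and 0.20 for KJ-PYR-9. The pairs come from the same libraries and are not independent, and 418 of 608 antisense members overlap an exon on the other strand. Whether reads were shared there depends on a strand setting that is not given in the sources used here, and its part in these values was not tested.

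**Figure D5:**
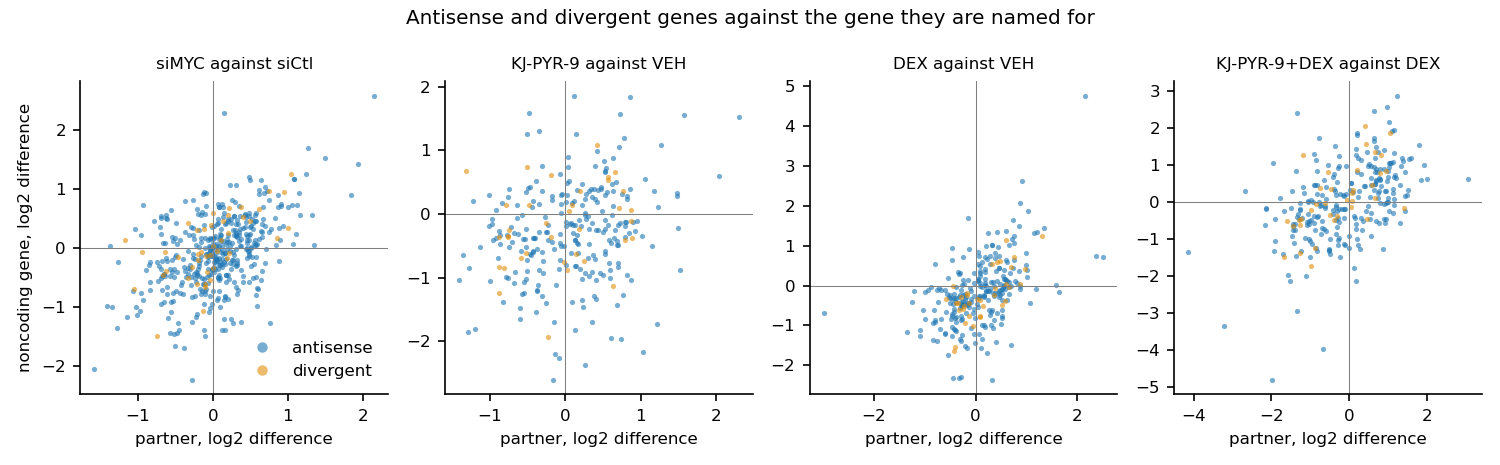
Log2 difference of each antisense (blue) or divergent (orange) member, vertical axis, against that of its partner gene, horizontal axis, in 4 comparisons with separate axis ranges. The r of the antisense pairs is 0.49 in siMYC against siCtl and 0.22 in KJ-PYR-9 against VEH.

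MB-3 for 3 h was compared with its own vehicle, in a table that holds only genes with a mean of at least 83.9 normalised counts. None of the 90 members passed as higher or lower (limma), where 0.0299% of all 10048 genes passed in each direction (0.0597% together). At an unadjusted p under 0.05, 9 of the 90 members and 1377 of all genes passed, and the members' log2 differences ran from -0.43 to 0.43. The count stayed at 0 under each alternative that was run. The lowest adjusted p of a member was that of SNHG12, with a log2 difference of -0.36 (limma adjusted p = 0.233).

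GAS5 was at 1868, 1950 and 2078 in VEH2 and 2247, 2230 and 2133 in MB3, just apart, with a log2 difference of 0.17 (SE 0.07, limma adjusted p = 0.371). MALAT1 was at 20689, 22370 and 22282 in VEH2 and 21854, 25538 and 22994 in MB3, and the groups overlapped. NEAT1 was at 1994, 1148 and 1273 in VEH2 and 1417, 1040 and 1076 in MB3 (log2 -0.29, limma adjusted p = 0.537). Among the 15 hosts in this table SNHG29 was at -0.02, SNHG3 at -0.02, SNHG17 at -0.0020, SNHG32 at 0.03, SNHG5 at 0.06 and SNHG1 at 0.07. The groups did not overlap for 7 members higher and 7 lower of 90, against 11.5% and 11.6% of all genes.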

How the data were processed

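Total RNA of BT549 cells, depleted of ribosomal RNA, was sequenced as paired ends in 24 libraries. The deposited signal values are gene counts that the authors made with featureCounts and normalised with DESeq2 on GRCh38, per the submitters' processing notes; the aligner, versions, annotation and strand setting are not given in the sources used here. Each experiment was normalised on its own and tested on its own. Every value was a whole multiple of 1 step per library (100.0% within 0.0001), which gave the depths. The unit check accepted this for the knockdown libraries other than siMYC 1 and for the inhibitor libraries. For MB-3 it did not, and count tests were not run there. The count tests of the knockdown included siMYC 1, which the check had not accepted. Features without a symbol (1.62 to 26.04% of inhibitor reads) were left out.

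Values were tested with limma 3.58.1 (R 4.3.3) on log2(value + 1), two-sided, for genes with a mean of at least 10, with Benjamini-Hochberg adjustment over all genes and a threshold of 0.05; fold changes of low genes are understated on this scale. The 12 inhibitor libraries were fitted together with 3 contrasts and their interaction; KJ-PYR-9 and DEX share the VEH libraries, and DEX also serves as the control of the combination. Alternatives were pseudocounts, filters, TMM and quantile scaling, robust variance, edgeR 4.0.16 and DESeq2 1.42.0 on recovered reads, a replicate block and leaving out libraries; those on counts of classes were added after seeing the data. Scripts were tested on simulated data.

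Same-numbered libraries deviated together in the inhibitor (18 of 18 pairs, r 0.13 to 0.524) and MB-3 (3 of 3, r 0.208 to 0.389) experiments, so there the numbers were taken to pair the samples, from the data and not from the labels. The main tests did not use this pairing, which entered only as the replicate block among the alternatives. The library titled MED3 was placed in MB3 by its treatment label. Members and lists were chosen with earlier results of these data known. Text names GAS5, MALAT1, NEAT1, the 6 SNHG genes of highest mean count, and the 8 largest rises and falls among members past the threshold with a mean of at least 50 and groups apart (for the interaction, 3 each way); other SNHG genes were named after their values were seen. A gene that this rule selects for DEX is not reported here. Sequences are from RefSeq (GRCh38.p14), overlaps from GENCODE v29, which held 1001 members.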

Additional observations from a re-analysis of the deposited data

Results flagged for a closer look

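Among the 123 of 439 tested members that passed the interaction test, 10 that the text names are given here. For these the effect of KJ-PYR-9 with DEX differed from that without, by the interaction term of the inhibitor fit (limma, adjusted over all genes). The effects share no control library, but all 12 libraries enter 1 fit. NEAT1 had a log2 difference of 2.24 without DEX and -2.45 with it, an interaction of -4.69 (limma adjusted p = 5.64e-06). ATP2B1-AS1 went from 1.59 to -2.01 (interaction -3.59, limma adjusted p = 3.35e-07), and LINC01504 from 0.52 to -3.89 (-4.41). CTBP1-AS went the other way, from -1.27 to 2.57 (interaction 3.84, limma adjusted p = 0.000519), as did HOXC-AS2, from -1.12 to 1.66 (2.78), and LINC00472, from -2.18 to 0.31 (2.49, limma adjusted p = 0.0107). Among the snoRNA hosts, GAS5 went from 0.91 to -0.25 (-1.16), SNHG1 from 0.33 to -1.17 (-1.51), SNHG29 from 0.16 to -0.67 (-0.83) and SNHG5 from -0.24 to -1.22 (-0.98, limma adjusted p = 0.0347). MYC had the same order of levels as NEAT1, lowest in VEH, then KJ-PYR-9+DEX, KJ-PYR-9 and DEX, and its part in these differences was not tested. The labels of the 4 inhibitor groups were taken as given, and no value here checks them.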

How the results depend on the processing

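Counts of members past the threshold were 98 for siMYC, 148 for KJ-PYR-9, 113 for DEX, 220 for KJ-PYR-9+DEX and 123 for the interaction. Leaving out 1 library gave 22 to 183, 99 to 173, 65 to 142, 190 to 220 and 96 to 130. For siMYC the count was 28, 23, 22 and 23 without siCtl 1, siCtl 2, siCtl 3 and siMYC 3, and 183 without siMYC 1; for DEX it was 65 to 72 without VEH 2, VEH 3, DEX 1 or DEX 2. A mean of at least 50, which tests fewer genes, gave 68, 47, 88 and 49 for the 4 inhibitor results, and no filter gave 338 for KJ-PYR-9+DEX against DEX. The knockdown numbers did not pair the samples (r -0.346 to -0.02): with the replicate block 24 members passed, 18 higher and 6 lower, and 0 hosts. In the inhibitor experiment the block gave 184, 166, 237 and 164 members, 16 divergent calls in place of 8 for DEX, and no lost call among the named members; MB-3 stayed at 0 with it. edgeR gave 83, 177, 110, 180 and 119, and DESeq2 108, 168, 110, 173 and 122. Signs turned for SNHG29 with KJ-PYR-9 under quantile scaling (-0.25), and for SNHG17 in the interaction under quantile scaling (0.18) and edgeR (0.015), with -0.17 to 0.037 when 1 library was left out. For MB-3 leaving out 1 library gave SNHG29 -0.043 to 0.0080, SNHG5 -0.0023 to 0.12, SNHG3 -0.088 to 0.025, SNHG32 -0.065 to 0.12 and SNHG17 -0.075 to 0.045, none past the threshold. The cause of these moves was not tested. The median interaction of all genes was -0.11 as deposited and 0.03 after quantile scaling. Depth limits members of few reads, such as CTBP1-AS in DEX and LINC02574 in siCtl.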
